A study of Rattus norvegicus with 12 samples.

Results

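The genes described here are 7 that cells switch on under stress or use to stay alive: Gadd45a, Gadd45g, Ddit3, Dnajb1, Mt2A, Bcl2l1 and Mcl1. They were found by symbol in the platform annotation, with 1 probe each, so they are 7 of 3939 named genes and 7 of 7200 probes. These 7 were chosen by their measured values at 2 h and 6 h in these same rats. Their log2 ratios are therefore given as a description, with no p-value. Where the number of them past a threshold is given, it describes the same values and is no test of these genes, and p-values are printed only for related genes that the choice did not use. Total RNA of rats given lipopolysaccharide (LPS), a cell wall component of Gram-negative bacteria, was set against control RNA on arrays with 2 channels, and blood is named as the source in the title alone. There were 3 rats labelled 2 h (numbers 1, 2 and 3) and 3 labelled 6 h (numbers 2, 4 and 6). Every rat was measured against the control pool of its time on a fluor array, with the pool in channel 1, and on a flip array, with the channels exchanged. Strain, sex, age, LPS dose, route and the number of animals in each pool were not stated in the labels. The values are log2 ratios, in which 0 means equal to the pool and 1 means a doubling. A ratio gives no level, so the source could not be checked against transcripts that define blood.

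A value above 0 is taken here to mean more RNA after LPS. That reading is likely but not settled by the labels, which state neither dyes nor the direction of the flip ratios. It rests on 8 measured genes that are textbook targets of LPS, of which 5 (Il1b, Il1r2, Zfp36, Irf1 and Lcn2) were above 0 on all 12 arrays and 0 passed the threshold below 0. Nfkbia, of the same 8, averaged 0.012 at 2 h and -0.11 at 6 h and Sod2 0.059 and 0.12, and neither passed at either time. Tnf averaged -0.0037 at 2 h (-0.15 on fluor and 0.15 on flip arrays) and 0.22 at 6 h, where it passed above 0. The other reading multiplies the flip arrays by -1, and the mean of each of the 7 genes is also given that way. If the flip ratios run in the direction taken here, that mean describes the gap between the arrays and not a change. Turned that way, Il1b averaged 0.30 at 2 h and 0.22 at 6 h, beside 3.90 and 2.05 as deposited. As deposited, 4 of the 8 passed above 0 at 2 h and 6 at 6 h. Turned, 0 passed at 2 h, and at 6 h 1 passed above and 1 below 0. Across the 3939 genes both arrays of a rat correlated at 0.365, 0.457 and -0.03 in the 2 h rats and at 0.32, 0.281 and 0.302 in the 6 h rats, a description across genes, which are not replicates.

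The 7 genes belong to a handful of textbook stress circuits. GADD45 proteins are induced by DNA damage and cytokines, bind the kinase MTK1 (Map3k4) and through it feed the p38 and JNK kinases. Ddit3 encodes CHOP, the transcription factor that the unfolded protein and integrated stress responses raise through ATF4. Dnajb1 encodes an HSP40-type co-chaperone that hands substrates to HSP70 and is driven by heat shock factor. Mt2A encodes a metallothionein, a small cysteine-rich protein that binds zinc and copper and is induced by metals, glucocorticoids and inflammatory cytokines. Bcl2l1 (encoding BCL-XL) and Mcl1 keep mitochondria closed to the death signals of BAX and BAK. BCL-XL is known for the survival of red cell precursors and platelets, and MCL1, a protein with a short life, for that of neutrophils and lymphocytes.

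Promoter sequence is shown for 4 of the genes with a match. RefSeq windows in GRCr8 were matched for all 7 genes (10 windows, of which 4 belong to Bcl2l1), and the 250 bases before the annotated start were searched on both strands. The capitals mark the metal response core TGCACNC or TGCGCNC in Mt2A, the heat shock pair GAANNTTC or TTCNNGAA in Dnajb1, the C/EBP-ATF composite TTGCATCA in Gadd45g and the AP-1 letters TGANTCA in Ddit3.
Mt2A (chr19:10838709-10838958, minus strand): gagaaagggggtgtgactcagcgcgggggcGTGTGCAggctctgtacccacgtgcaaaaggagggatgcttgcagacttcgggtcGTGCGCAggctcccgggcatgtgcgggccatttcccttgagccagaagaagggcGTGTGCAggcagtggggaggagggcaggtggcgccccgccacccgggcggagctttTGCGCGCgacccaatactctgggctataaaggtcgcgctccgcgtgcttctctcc
Dnajb1 (chr19:41431142-41431391, minus strand): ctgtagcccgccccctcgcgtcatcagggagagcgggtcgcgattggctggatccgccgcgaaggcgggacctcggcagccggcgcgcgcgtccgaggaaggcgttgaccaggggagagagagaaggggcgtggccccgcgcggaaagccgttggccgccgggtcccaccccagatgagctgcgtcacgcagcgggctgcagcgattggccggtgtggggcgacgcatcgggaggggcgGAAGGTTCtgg
Gadd45g (chr17:13530352-13530601, minus strand): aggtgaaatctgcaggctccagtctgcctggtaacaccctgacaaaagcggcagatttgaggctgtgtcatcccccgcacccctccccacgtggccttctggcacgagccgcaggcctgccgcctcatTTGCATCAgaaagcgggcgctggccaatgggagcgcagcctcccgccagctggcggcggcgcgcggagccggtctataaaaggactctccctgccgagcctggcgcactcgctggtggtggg
Ddit3 (chr7:65001445-65001694, plus strand): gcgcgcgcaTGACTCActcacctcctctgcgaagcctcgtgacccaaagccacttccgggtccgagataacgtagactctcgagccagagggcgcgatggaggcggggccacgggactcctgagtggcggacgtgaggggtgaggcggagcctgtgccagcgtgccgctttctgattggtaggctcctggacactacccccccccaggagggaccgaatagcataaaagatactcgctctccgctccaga

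The Mt2A window held the metal response core 4 times, starting at -220, -165, -111 and -55 from the start site, besides AP-1 letters at -237 and a TATA box (TATAAA) at -31. Of all 33469 rat windows, 20.6% held that core at least once, and the share with 4 copies was not counted. Dnajb1 held 1 heat shock pair at -11, a feature of 13.5% of windows. Gadd45g held the C/EBP-ATF composite at -122, as did 0.693% of windows, a metal response core at -92 and a TATA box at -48 (12.9% of windows). Ddit3 held AP-1 letters at -241 (6.34% of windows) beside a metal response core at -248. The 250 bases searched held neither the C/EBP-ATF composite nor the CRE in Ddit3, and bases farther upstream were not searched. Mcl1 held an NF-kappaB motif at -99 (6.33% of windows), Bcl2l1 a metal response core at -72 in the first of its windows, and Gadd45a none of the 7 motifs searched, the seventh being the CRE (TGACGTCA), which 1.59% of windows held. No matches of different motifs overlapped in these windows. A match is a description of letters and not of a bound factor.

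As deposited, all 7 genes averaged above their pool at both times, by a modest amount. The means at 2 h ran from 0.11 for Ddit3 to 0.47 for Gadd45g, which is 1.08-fold to 1.39-fold. At 6 h they ran from 0.075 for Bcl2l1 to 0.25 for Ddit3. The Ddit3 means join fluor values below 0 and flip values above 0, and are not taken as a rise. The median of the 7 was 0.38 at 2 h and 0.21 at 6 h, beside medians of -0.0070 and 0.0069 over the 3939 genes. Limma's fit of all genes used an adjusted p threshold of 0.05. At 2 h 6 of the 7 were past it above 0, as were 9.34% of all genes. At 6 h 2 of the 7 were (Gadd45g and Ddit3), as were 8.3% of all genes. Because the genes were selected on these values, nothing is read from either count. On every array of the time, 5 of 7 genes lay above 0 at 2 h (10.6% of all genes did) and 2 of 7 at 6 h (10.2% of all genes).

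**Figure D1:**
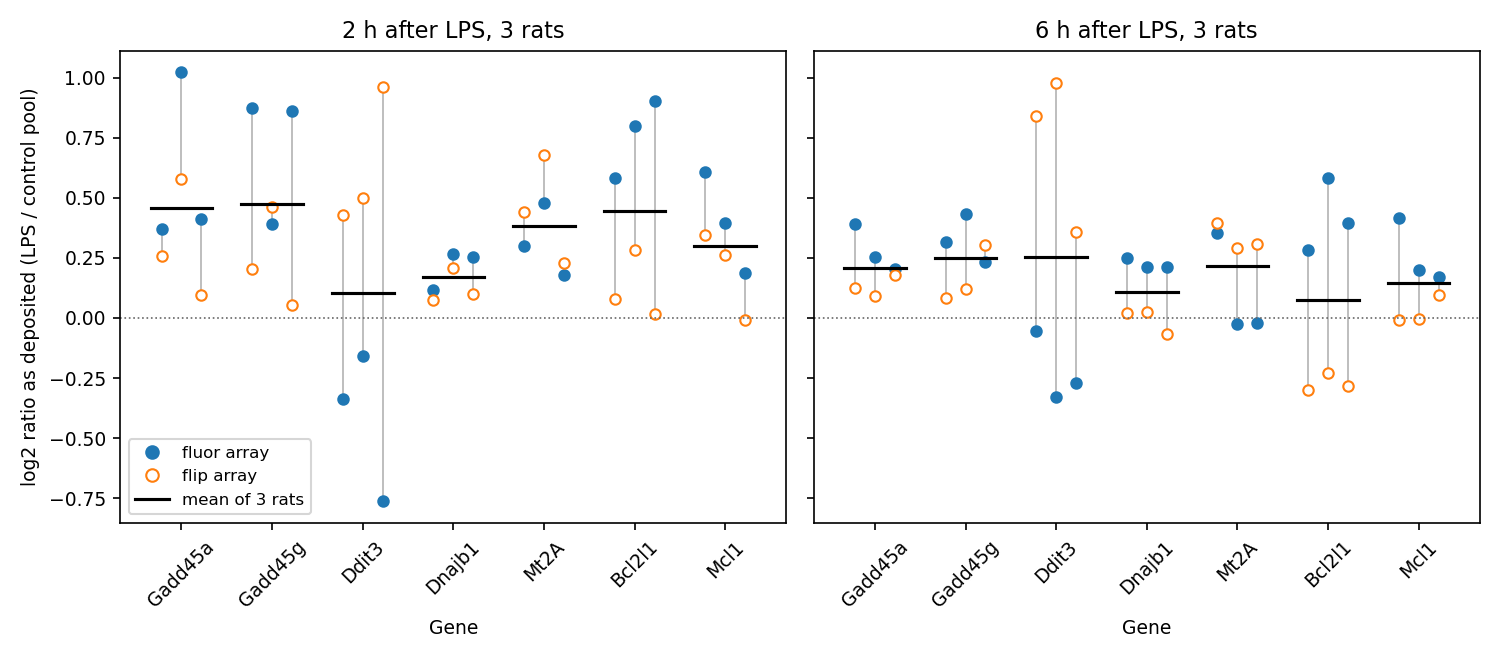
Log2 ratio to the control pool (vertical axis) of each gene on each array, 2 h on the left and 6 h on the right. Filled points are fluor arrays and open points flip arrays, a grey line joins both arrays of a rat, rats stand from left to right by number, and the black bar is the mean of 3 rats. Gadd45a and Gadd45g stay above 0 on all 12 arrays, whereas Ddit3 is below 0 on each fluor array and above 0 on each flip array.

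Genes that mark blood cells shifted in the same libraries. Of 4 neutrophil markers 3 rose at both times, and the 4 means ran from -0.083 to 2.98 at 2 h and from -0.053 to 2.70 at 6 h. The risers were S100a9, Lcn2 and Il1r2, and S100a8 did not rise. Lcn2 and Il1r2 are also among the textbook targets of LPS used above, so they do not mark neutrophils alone. Of 4 T cell markers 2 fell at both times (means from -0.55 to -0.056 and from -0.69 to -0.082), and of 2 B cell markers 2 fell at 2 h and 1 at 6 h (-0.45 and -0.13, then -0.71 and -0.12). Of 3 monocyte and macrophage markers 1 fell at 2 h and 2 at 6 h (-0.32 to -0.070 and -0.37 to -0.010). Of 7 erythroid markers 4 rose and 1 fell at 2 h (-0.14 to 0.81), and 0 rose and 2 fell at 6 h (-0.16 to 0.30). Of 2 platelet markers 1 rose at 2 h and 0 at 6 h (0.18 and 0.34, then 0.022 and -0.39). In the other reading fewer of these markers passed at 2 h: 0 of 4 for neutrophils, 1 lower for T cells, 0 for B cells and for monocytes, 2 higher and 1 lower for erythroid and 1 higher for platelet genes. That reading gave 1 higher for neutrophils, 1 lower for T cells and for monocytes, 0 for B cells, 3 higher and 1 lower for erythroid and 1 higher for platelet genes at 6 h. The part of these shifts in the values of the 7 genes was not tested, and in bulk RNA fewer cells of a type and less RNA per cell cannot be told apart.

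Among the DNA damage inducible genes, Gadd45g had the closer rat means. At 2 h it read 0.88, 0.39 and 0.86 on the fluor arrays of rats 1, 2 and 3 and 0.20, 0.46 and 0.052 on their flip arrays. At 6 h it read 0.32, 0.43 and 0.24 on the fluor arrays of rats 2, 4 and 6 and 0.083, 0.12 and 0.30 on the flip arrays. Averaged over both arrays the rats lay close together, at 0.47 ± 0.058 (SD, n = 3; 1.39-fold) at 2 h and 0.25 ± 0.043 (1.19-fold) at 6 h, and the lowest 2 h rat (0.43) was above the highest 6 h rat (0.28). At 2 h this closeness holds for the averages alone, as the SD over rats was 0.27 on fluor and 0.21 on flip arrays. Rat 2 was then the lowest on fluor and the highest on flip arrays. Turning the flip arrays gave 0.24 and 0.079. As deposited, its rank by mean was 54 of 3939 genes at 2 h and 189 at 6 h.

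Gadd45a, the p53-responsive paralogue, was highest at 2 h in 1 rat. Rat 2 read 1.02 on the fluor and 0.58 on the flip array, while rats 1 and 3 read 0.37 and 0.41 on fluor and 0.26 and 0.097 on flip arrays. The 2 h mean was 0.46 ± 0.30 (1.37-fold), and at 6 h it was 0.21 ± 0.045 (1.15-fold). The 6 h arrays spread less, from 0.092 to 0.39. Rat means overlapped between the times, since 2 h rat 3 stood at 0.25 and 6 h rat 2 at 0.26. Without 2 h rat 2 the 2 h mean of Gadd45a was 0.28, which is smaller by more than 1.5 times. The other reading gave Gadd45a means of 0.15 and 0.076.

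Ddit3 was the exception among the 7. On the fluor arrays it was below the pool in all 6 rats, at -0.34, -0.16 and -0.76 at 2 h and at -0.055, -0.33 and -0.27 at 6 h. On the flip arrays it was above the pool in all 6, at 0.43, 0.50 and 0.96 at 2 h and at 0.84, 0.98 and 0.36 at 6 h. The opposite signs largely cancel in the rat means, which averaged 0.11 ± 0.063 (1.08-fold) at 2 h and 0.25 ± 0.19 (1.19-fold) at 6 h. Scaling the arrays to the same median absolute deviation put the 2 h mean of Ddit3 at 0.27. Such a split in all 6 rats was seen in 4.14% of all genes and in 1 of these 7. In the other reading Ddit3 averaged -0.52 at 2 h and -0.47 at 6 h. Only if the flip ratios were deposited in the opposite direction is that a level, 0.695 and 0.721 times that of the pool. With the ratios as deposited, the reading taken here as likely, Ddit3 averaged -0.42 on fluor and 0.63 on flip arrays at 2 h. Its 6 h averages were -0.22 and 0.73. These signs disagree, so that reading gives Ddit3 no direction, and its means above 0 are not taken as a rise. Only the other reading, which the labels do not settle, gives a direction, below the pool.

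Dnajb1, the co-chaperone, stayed near its pool. The fluor arrays read 0.12, 0.27 and 0.26 at 2 h and 0.25, 0.21 and 0.21 at 6 h. The flip arrays read 0.074, 0.21 and 0.098 at 2 h and 0.023, 0.024 and -0.066 at 6 h. All 6 arrays were above 0 at 2 h and 5 of 6 at 6 h, with the mean at 0.17 ± 0.072 (1.12-fold) and then at 0.11 ± 0.033 (1.08-fold). The 6 h mean came from the fluor arrays (0.23), as the flip arrays averaged -0.0063. Subtracting neighbouring probes lowered that 6 h mean to 0.071, and turning the flip arrays gave 0.043 at 2 h and 0.12 at 6 h.

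Mt2A, the metallothionein, read higher on the flip than on the fluor array in each of the 6 rats. At 2 h the fluor arrays gave 0.30, 0.48 and 0.18 and the flip arrays 0.44, 0.68 and 0.23, so all 6 were above 0 and rat 2 was the highest on both. At 6 h the fluor arrays gave 0.35, -0.023 and -0.021 and the flip arrays 0.40, 0.29 and 0.31. Rat 2 of that time was again the highest, and rats 4 and 6 were at the pool's level on the fluor array. The means were 0.38 ± 0.19 (1.31-fold) at 2 h and 0.22 ± 0.14 (1.16-fold) at 6 h, and their rats overlapped. Without 6 h rat 2 the 6 h mean of Mt2A was 0.14. Turning the flip arrays gave Mt2A means of -0.065 and -0.11, below 0 because its flip values were the higher.

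Bcl2l1, the BCL-XL gene, had the largest gap between the times. At 2 h it read 0.58, 0.80 and 0.91 on the fluor arrays and 0.078, 0.28 and 0.017 on the flip arrays. At 6 h the fluor arrays read 0.28, 0.58 and 0.40, while the flip arrays were below the pool in every rat, at -0.30, -0.23 and -0.28. The rat means were 0.44 ± 0.11 (1.36-fold) at 2 h and 0.075 ± 0.094 (1.05-fold) at 6 h, without overlap. The 6 h mean of Bcl2l1 was 0.024 without 6 h rat 4 and 0.12 without 6 h rat 2, 0.12 with neighbouring probes subtracted and 0.036 with arrays scaled to the same median absolute deviation. Its 6 h mean near 0 is thus the sum of opposite signs, a split that 19.6% of all genes showed in all 3 rats of that time and that Ddit3 and Bcl2l1 showed here. In the other reading Bcl2l1 stood at 0.32 at 2 h and 0.35 at 6 h, so in that reading its 6 h mean was not the lower.

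Mcl1, the other survival gene, was above its pool on 9 of 12 arrays. At 2 h its fluor arrays read 0.61, 0.39 and 0.19 and its flip arrays 0.35, 0.26 and -0.0082, with rat 1 the highest and rat 3 the lowest on both. At 6 h the fluor arrays read 0.42, 0.20 and 0.17 and the flip arrays -0.0078, -0.0036 and 0.097. The means were 0.30 ± 0.20 (1.23-fold) and 0.15 ± 0.053 (1.11-fold), and the rats of the times overlapped. Turning the flip arrays gave Mcl1 means of 0.098 and 0.12.

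**Figure D2:**
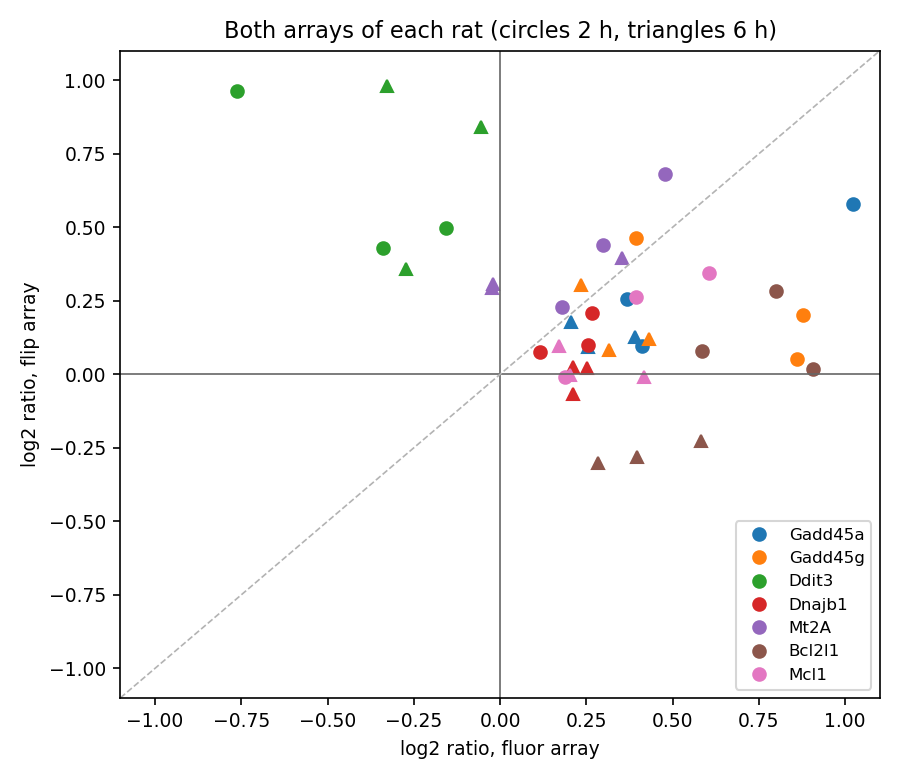
Log2 ratio on the fluor array (horizontal axis) against that on the flip array of the same rat (vertical axis), with circles for 2 h, triangles for 6 h and 1 colour per gene. Points on the dashed line are equal on both arrays. Ddit3 lies at upper left in all 6 rats, Mt2A above the line, and Bcl2l1 at 6 h at lower right.

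Fluor and flip arrays differed by gene and not in 1 direction. The mean fluor value exceeded the mean flip value by 0.64 at 2 h and 0.69 at 6 h in Bcl2l1 and by 0.47 and 0.16 in Gadd45g. In Ddit3 the difference had the other sign, -1.05 and -0.95. For Dnajb1 it was 0.086 and 0.23, for Mcl1 0.20 and 0.23, for Gadd45a 0.29 and 0.15 and for Mt2A -0.13 and -0.23. In the other reading 3 of the 7 were past limma's threshold at 2 h in either direction, where 14.2% of all genes were, and 5 at 6 h, where 37.1% were. As with the deposited direction, nothing is read from these counts.

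Between the times, 6 of the 7 genes averaged lower at 6 h than at 2 h, as did 50.3% of all genes, and Ddit3 averaged higher. The other reading had 3 of the 7 lower at 6 h (Gadd45a, Gadd45g and Mt2A), so the count depends on the direction of the flip arrays. As deposited, the difference of 6 h minus 2 h was -0.37 (SE 0.072) for Bcl2l1, -0.25 (SE 0.14) for Gadd45a and -0.23 (SE 0.048) for Gadd45g. It was -0.17 (SE 0.11) for Mt2A, -0.15 (SE 0.095) for Mcl1, -0.060 (SE 0.050) for Dnajb1 and 0.15 (SE 0.093) for Ddit3. Rat means of the times did not overlap for Gadd45g and Bcl2l1, and overlapped for the other 5; 21.7% of all genes had rat means that did not overlap. Limma called 0 of the 7 between the times, and 0.508% of all genes. These differences also hold any difference between the control pools.

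**Figure D3:**
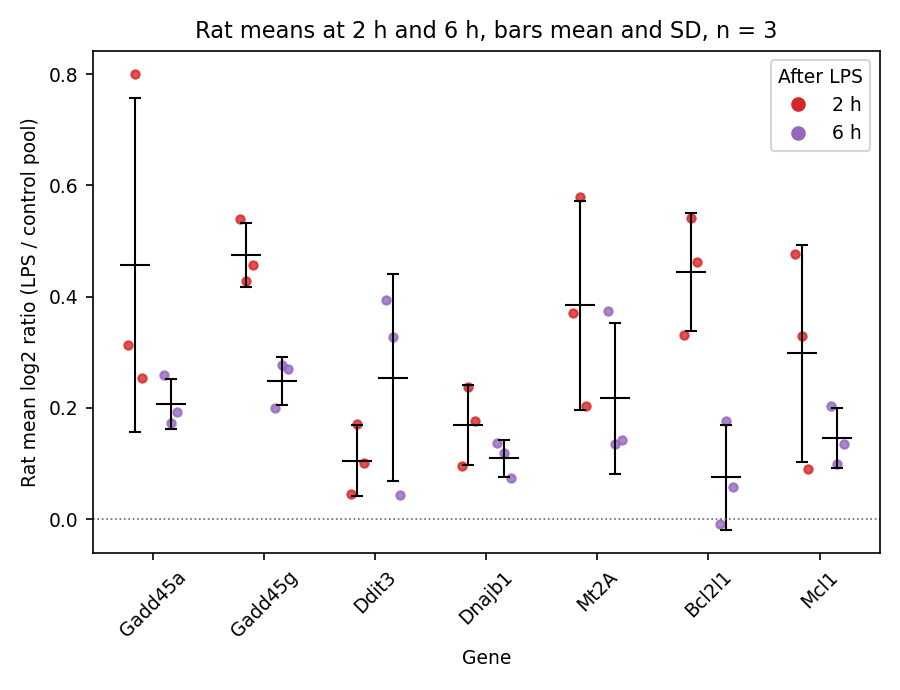
Rat mean of the log2 ratio to the control pool (vertical axis) for each gene, 3 rats at 2 h and 3 at 6 h, with black bars for mean and SD. The 2 h and 6 h rats of Gadd45g and Bcl2l1 do not overlap, and the single high rat of Gadd45a at 2 h stands at 0.80.

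Ordered by mean as deposited, Gadd45g, Gadd45a and Bcl2l1 led at 2 h (0.47, 0.46 and 0.44), followed by Mt2A (0.38), Mcl1 (0.30), Dnajb1 (0.17) and Ddit3 (0.11). Neighbours in this order overlapped in their rats. At 6 h the order was Ddit3 (0.25), Gadd45g (0.25), Mt2A (0.22), Gadd45a (0.21), Mcl1 (0.15), Dnajb1 (0.11) and Bcl2l1 (0.075), again with overlap between neighbours. Turning the flip arrays changed the order to Bcl2l1 (0.32), Gadd45g (0.24), Gadd45a (0.15), Mcl1 (0.098), Dnajb1 (0.043), Mt2A (-0.065) and Ddit3 (-0.52) at 2 h. At 6 h it then ran from Bcl2l1 (0.35) through Mcl1 and Dnajb1 (both 0.12), Gadd45g (0.079), Gadd45a (0.076) and Mt2A (-0.11) to Ddit3 (-0.47), so neither order holds in both readings. A ratio is relative to a gene's own pool level, so this is an order of changes and not of transcript levels. As deposited, the places of Ddit3 at both times and of Bcl2l1 at 6 h average fluor and flip values of opposite sign.

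For each gene the named gene with the smallest root mean square difference over the 12 arrays was also taken. Bcl2l1 was nearest to Tmem161b (difference 0.072), which averaged 0.40 ± 0.067 at 2 h and 0.083 ± 0.082 at 6 h. Dnajb1 was nearest to Rbfox2 (0.051), Mcl1 to Zdhhc12 (0.12), Gadd45g to Coro1c (0.15), Mt2A to Timm44 (0.15), Gadd45a to Coq2 (0.16) and Ddit3 to Dnph1 (0.21). The distance is small where both genes change little, as for Dnajb1, and all arrays of a time share a pool.

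The related genes were 67 measured genes in 7 lists, none of them one of the 7 above, and they were tested with limma over all 3939 genes. At 2 h 7 of the 67 rose and 8 fell, 22.4% in either direction beside 19.2% of all genes. At 6 h 7 rose and 6 fell, 19.4% beside 19.0% of all genes. A share this near the background does not set these genes apart. Between the times 0 of the 67 passed in limma (none of the 7 lists held a call; 11 genes had an unadjusted p under 0.05).

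**Figure D4:**
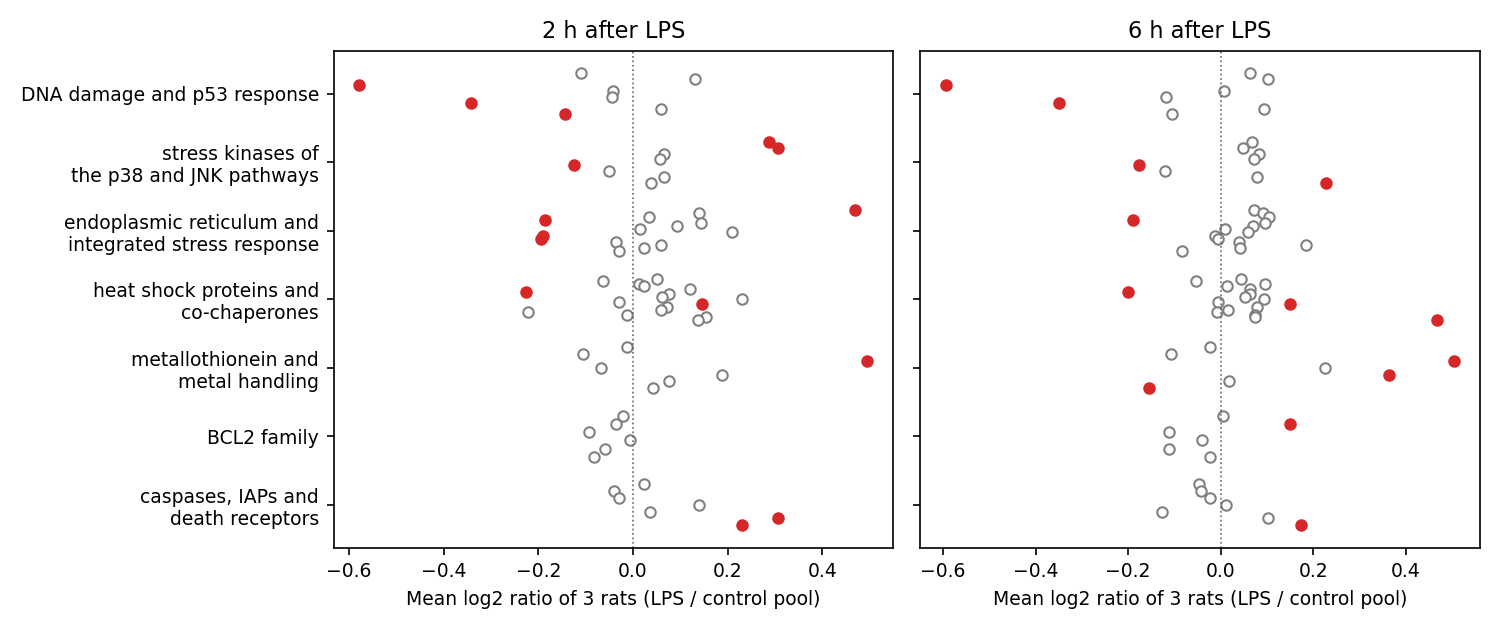
Mean log2 ratio of 3 rats (horizontal axis) for each measured gene of the 7 related lists (rows) at 2 h on the left and 6 h on the right. Filled points passed limma's threshold over all genes and open points did not. Points past the threshold lie on both sides of 0 in 3 of the 7 rows at 2 h and in 3 at 6 h.

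In the list of DNA damage and p53 response genes, 8 were measured, 0 rose and 3 fell at 2 h, with 2 falling at 6 h. Mgmt, which repairs alkylated guanine, fell by 0.58 ± 0.18 at 2 h (adjusted p = 0.0024) and by 0.59 ± 0.11 at 6 h (adjusted p = 0.0019), below 0 on all 12 arrays. Pcna, the clamp of replication and repair, fell by 0.34 ± 0.033 at 2 h (adjusted p = 0.000768) and by 0.35 ± 0.027 at 6 h (adjusted p = 0.000385), also on all 12 arrays. Ppm1d, a phosphatase that p53 induces, fell by 0.14 ± 0.013 at 2 h (adjusted p = 0.0285). The list median was -0.078 at 2 h and -0.049 at 6 h. Ccng1, a direct p53 target, stood at 0.13 ± 0.10 at 2 h and 0.10 ± 0.047 at 6 h (adjusted p = 0.0736 and 0.133), and passed at neither time. Its value is the mean of 2 probes, and with the lowest-numbered probe alone it passed at 2 h. At 2 h it also passed on the fluor arrays alone, with neighbouring probes subtracted and with all arrays and the rat as a random block. With 1 rat left out in turn, Mgmt and Pcna passed in all 6 fits at both times, whereas Ppm1d passed in 2 of 6, with means from -0.15 to -0.14. Subtracting neighbouring probes took Pcna to -0.033 at 2 h and -0.023 at 6 h, where it no longer passed, and Mgmt to -0.27 and -0.23, where it did.

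Of 8 stress kinase genes, 2 rose and 1 fell at 2 h. The risers were the kinases that activate p38: Map2k6 by 0.31 ± 0.13 (1.24-fold; adjusted p = 0.00785) and Map2k3 by 0.29 ± 0.14 (1.22-fold; adjusted p = 0.0264), each above 0 on all 6 arrays of 2 h. The gene of p38 alpha itself, Mapk14, fell by 0.13 ± 0.062 at 2 h (adjusted p = 0.0418) and by 0.18 ± 0.030 at 6 h (adjusted p = 0.0124). Map3k4, the GADD45 partner, was above 0 on all 12 arrays but small, at 0.066 ± 0.016 and 0.083 ± 0.012 (adjusted p = 0.119 and 0.0668). At 6 h Mapkapk3, a kinase that p38 activates, rose by 0.23 ± 0.065 (adjusted p = 0.0207), and Map2k6 and Map2k3 stood at 0.049 and 0.069. With 1 rat left out, Map2k6 passed in 5 of 6 fits at 2 h (0.28 without rat 2, where it did not), Map2k3 in 3 (0.21 to 0.33), Mapk14 in 0 at 2 h and 4 at 6 h (-0.15 to -0.089 and -0.19 to -0.16) and Mapkapk3 in 4 (0.21 to 0.27). Subtracting neighbouring probes took Mapk14 to -0.20 and -0.28.

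The endoplasmic reticulum and integrated stress response list, the setting of Ddit3, had 14 measured genes, with 1 rising and 3 falling at 2 h and 0 rising and 1 falling at 6 h. Asns, asparagine synthetase and a target of ATF4, rose by 0.47 ± 0.054 at 2 h (1.38-fold; adjusted p = 0.000876), with all 6 arrays above 0, and stood at 0.072 ± 0.096 at 6 h (adjusted p = 0.262). The protein disulfide isomerases Pdia3 and P4hb fell by 0.19 ± 0.083 and 0.19 ± 0.029 at 2 h (adjusted p = 0.0338 and 0.0153). Edem1, of protein degradation in the reticulum, fell by 0.19 ± 0.024 at 2 h (adjusted p = 0.0136) and by 0.19 ± 0.073 at 6 h (adjusted p = 0.0113). Trib3, which ATF4 and CHOP induce, was at 0.023 and 0.042, and Ppp1r15a, the CHOP target also called GADD34, at 0.059 ± 0.34 and 0.19 ± 0.14, none past the threshold. Asns passed in all 6 fits with 1 rat left out, P4hb in 4, Pdia3 in 3 and Edem1 at 6 h in 5 (-0.15 without 6 h rat 2, where it did not). Edem1 at 6 h was -0.12 with neighbouring probes subtracted, and Pdia3 did not pass under quantile normalization (-0.14).

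Among 17 heat shock proteins and co-chaperones, 1 rose and 1 fell at 2 h, and 2 rose and 1 fell at 6 h. Hspa1l, an HSP70 family member, rose by 0.15 ± 0.055 at 2 h (adjusted p = 0.0223) and by 0.15 ± 0.027 at 6 h (adjusted p = 0.0185). Dnaja2, an HSP40 protein of another class than Dnajb1, fell by 0.23 ± 0.16 (adjusted p = 0.0338) and by 0.20 ± 0.030 (adjusted p = 0.0473). Tcp1, a subunit of the chaperonin that folds actin and tubulin, rose by 0.47 ± 0.081 at 6 h (1.38-fold; adjusted p = 0.00131). The list medians were 0.060 and 0.064. Bag3, a co-chaperone that heat shock factor induces as it does Dnajb1, stood at 0.051 and 0.044 (adjusted p = 0.392 and 0.458). Tcp1 passed in all 6 fits with 1 rat left out, Hspa1l in 4 at 2 h and 3 at 6 h, and Dnaja2 in 1 at 2 h, where its mean without rat 2 was -0.13, and 2 at 6 h. With neighbouring probes subtracted, Dnaja2 (-0.15 and -0.13) and Hspa1l at 6 h (0.078) did not pass, nor did Dnaja2 at 2 h under quantile normalization (-0.18).

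Of 7 metal handling genes, 1 rose at 2 h, and 2 rose and 1 fell at 6 h. Fth1, the ferritin heavy chain, rose by 0.50 ± 0.11 (adjusted p = 0.0108) and by 0.51 ± 0.25 (adjusted p = 0.00902), though its 6 h arrays ran from -0.15 to 1.19. The rise lay mostly on the fluor arrays, where Fth1 averaged 0.87 at 2 h and 0.94 at 6 h. On the flip arrays it averaged 0.12 and 0.069, and passed at neither time on those arrays alone. Mt3, the metallothionein best known from brain, rose by 0.37 ± 0.11 at 6 h (1.29-fold; adjusted p = 0.00488) and stood at 0.19 ± 0.11 at 2 h (adjusted p = 0.0505), above 0 on all 12 arrays. Slc40a1, the iron exporter ferroportin, fell by 0.15 ± 0.046 at 6 h (adjusted p = 0.0258). Hmox1, the inducible haem oxygenase, stood at -0.068 ± 0.066 and 0.23 ± 0.20 (adjusted p = 0.515 and 0.0658). Fth1 at both times and Mt3 at 6 h passed in all 6 fits with 1 rat left out, and Slc40a1 in 3 (-0.17 to -0.13).

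Of 23 listed relatives of Bcl2l1 and Mcl1 only 6 were measured as named genes, and these moved little. Bcl2, Bcl2a1, Bax and Bak1 were not among them. Of 6 other BCL2 family genes 0 passed in limma at 2 h, 0 of them at an unadjusted p under 0.05, and all 6 means were below 0, from -0.093 to -0.0065. At 6 h Bcl2l13 rose by 0.15 ± 0.059 (adjusted p = 0.0409), and the others did not pass. Bad, the sensitiser that binds BCL-XL, stood at -0.021 and 0.0047. Of 7 caspase, IAP and death receptor genes 2 rose at 2 h and 1 at 6 h. Tnfrsf1b, the second TNF receptor, rose by 0.23 ± 0.12 (adjusted p = 0.0186) and by 0.17 ± 0.045 (adjusted p = 0.0445), and Endog, a mitochondrial nuclease, by 0.31 ± 0.070 at 2 h (adjusted p = 0.0486). Endog at 2 h averaged 0.59 on fluor and 0.020 on flip arrays, and Tnfrsf1b at 6 h 0.30 and 0.045. With 1 rat left out, Bcl2l13 passed in 2 of 6 fits (0.13 to 0.18), Tnfrsf1b in 4 at 2 h and 2 at 6 h, and Endog in 2 (0.28 to 0.34). At 6 h Bcl2l13 did not pass with neighbouring probes subtracted (0.11), and neither Bcl2l13 (0.16 and 0.14) nor Tnfrsf1b (0.17 and 0.15) passed under quantile normalization or scaling to the same median absolute deviation.

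In the other reading Map2k3 (0.15), Pdia3 (-0.17), Fth1 (0.38) and Endog (0.29) passed at 2 h with the same sign, and Fth1 (0.44) and Tnfrsf1b (0.13) at 6 h. Mgmt passed there with the other sign at 6 h (0.13). The other calls named above did not pass in that reading. If the flip ratios run in the same direction, passing there means that fluor and flip arrays differ and is no support for a call. On the flip arrays alone Map2k3 (0.14), Pdia3 (-0.023) and Endog (0.020) did not pass at 2 h. Nor did Fth1 (0.12 at 2 h and 0.069 at 6 h) or Tnfrsf1b (0.045 at 6 h). On those arrays Ppm1d (-0.14), Map2k6 (0.21), P4hb (-0.11), Hspa1l (0.093) and Tnfrsf1b (0.13) also did not pass at 2 h. The same held for Slc40a1 (-0.12) at 6 h and for Mapk14 (-0.10 and -0.096) and Dnaja2 (-0.078 and -0.094) at both times. In all, 16 of the calls chosen by largest mean did not pass on the flip arrays alone, and 11 did. On the fluor arrays alone 4 did not pass and 23 did.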

How the data were processed

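Log2 ratios of 7200 probes on 12 arrays of 6 rats were used as the authors deposited them. The log base was read from the values: as powers of 2 they fell on steps of 0.0001 (to within 0.05 of a step, for ratios under 5) in 100% of cases on every array. How background, dyes, scanning and normalization were handled is not given in the sources used here. The array medians ranged from -0.020 to 0.0083 and the standard deviations from 0.27 to 0.48, and the number of arrays limits the precision. A single repeated value filled 242 to 298 probes of an array, and 0 of the 84 values of the 7 genes.

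Of the probes, 4190 had 1 symbol in the platform annotation (46 had several and 2964 none), and 4184 took their present symbol from the GRCr8 gene table by identifier, giving 3939 genes whose probes were averaged. Both arrays of a rat hold the same RNA and were averaged (n = 3 per time). Limma 3.58.1 (lmFit and eBayes, R 4.3.3) fitted all genes and 6 rats with 4 residual degrees of freedom, against 0 and between times, with Benjamini-Hochberg adjusted p under 0.05 as threshold. The control pool is 1 control sample, so its own spread is left out.

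Named are the 7 genes, up to 3 passing genes of largest mean per related list and time, the measured LPS-induced genes and the nearest gene of each. Ccng1, Map3k4, Trib3, Ppp1r15a, Bag3, Hmox1, Bad and Edem1 at 2 h, and genes given at a time when they did not pass, were added after values were seen. Members and lists were chosen with earlier results of these data known. Every count was recomputed under 16 alternatives. Columns of unmapped samples numbered 0.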

Additional observations from a re-analysis of the deposited data

How the results depend on the processing

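The direction of the flip arrays and the choice of arrays moved the results most. Among the 7 genes, the values past the threshold that changed sign were those of Ddit3 at 6 h (-0.47 with the flip arrays multiplied by -1 and -0.22 on the fluor arrays alone) and Mt2A at 2 h (-0.065 with the flip arrays multiplied by -1). Among related genes, the flip arrays multiplied by -1 turned Mgmt (0.034 at 2 h and 0.13 at 6 h), Mapkapk3 (-0.045 at 6 h) and Edem1 (0.091 at 6 h).

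Turning the flip arrays left 3 of the 7 genes past the threshold at 2 h and 5 at 6 h (6 and 2 as reported), 28 related genes at 6 h (13 as reported), and 1461 genes at 6 h and 0 between the times (749 and 20 as reported). The fluor arrays alone gave 1142 genes and 23 related genes at 2 h (755 and 15 as reported), 1202 genes at 6 h and 4 between the times. The flip arrays alone gave 336 genes, 2 of the 7 and 6 related genes at 2 h, 20 related genes at 6 h and 5 genes between the times. Scaling to the same median absolute deviation gave 0 of the 7 at 6 h. Bcl2l1 was the 1 of the 7 past the threshold between the times with that scaling, with quantile normalization (8 genes in all) and with all arrays and the rat as a random block (131 genes, and 1 related gene, Slc40a1; 23 related genes at 2 h). Subtracting neighbouring probes left 10 genes between the times, and centring on the median gave 1 related gene there, Asns.

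With 1 rat left out in turn, 323 to 668 genes, 3 to 6 of the 7 and 5 to 16 related genes passed at 2 h, and 306 to 927 genes, 1 to 5 of the 7 and 5 to 14 related genes at 6 h. Between the times 2 to 31 genes, 0 of the 7 and 0 to 1 related genes passed. Without 2 h rat 2, Dnajb1, Mt2A and Mcl1 were lost at 2 h, while 5 of the 7 passed at 6 h, where the shared estimate of the spread no longer held that rat. Without 2 h rat 1, Mt2A and Mcl1 were lost at 2 h, and without 2 h rat 3 Dnajb1. Ddit3 was lost at 6 h without 2 h rat 1, 2 h rat 3, 6 h rat 2 or 6 h rat 4. The other causes were not tested. No paired analysis was possible because the groups share only rat number 2, which the labels do not call the same animal. Signal over background is unknown, so which spots were dim could not be told.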
